A study of Mus musculus with 20 samples.

Results

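The Tcf7 locus was examined as a window of 60 kb on mouse chromosome 11, from 52.05 to 52.11 Mb of the mm9 build. It holds 190 of the 270514 peaks in 16 deposited peak lists, and 15 of the 16 lists have at least 1 peak in it. The window was selected on measured values, because its Pol II and TBP peaks are among the widest of the series and its Ser2P peak has the highest area of its list. The H3K4me3 peak of highest area was also a value the locus is known for. Peak number, width, area and rank at the locus are therefore given as description and carry no test. Of the peaks near the edges, an H3K36me3 peak and an H3K4me1 peak cross them and were left out. The outermost peaks inside the window are an H3K36me3 peak at chr11:52050131-52051880 (rank 13247 of 49181 by area) and an H3K4me1 peak at chr11:52104621-52109170 (rank 1280 of 74607), and the nearest peaks wholly outside are H3K4me1 peaks 0.43 kb below the lower edge (rank 3218) and 0.621 kb above the upper edge (rank 2884).

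The cells came from the thymus of C57BL/6 mice and were CD4+/CD8+ double-positive (DP) T cells, an intermediate stage of T-cell maturation. The labels state wild-type animals of 5 to 6 weeks for the FAIRE and RNA samples and magnetic sorting for CD8 and then CD4 for the FAIRE sample, and give neither age nor sorting for the immunoprecipitations. Each of 16 samples gave 1 list. Its target was RNA polymerase II (Pol II) in total or with a phosphate on serine 5 or serine 2 of the C-terminal domain (Ser5P and Ser2P), one of the general transcription factors TBP, Taf1, TFIIA, TFIIB, TFIIE, TFIIF and TFIIH, the coactivator CBP, the transcription factor ETS1, or one of the histone marks H3K4me3, H3K4me1 and H3K36me3. The last list is from FAIRE, which recovers open chromatin without an antibody. Another 4 samples, the input, the rabbit immunoglobulin control and both RNA samples, were not analysed here, and marker genes of the cell type were not checked because gene models of mm9 were not used here. As each target had a single list, no replicate error can be given for any value. In such bulk preparations, binding in more cells and more binding per cell cannot be told apart.

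Tcf7 encodes TCF-1, a DNA-binding factor of the HMG-box family that is needed at several steps of T-cell development and is strongly expressed in the thymus. It can partner with beta-catenin in Wnt signalling, and long and short forms of the protein differ in the N-terminal region that binds beta-catenin. Pol II is generally Ser5-phosphorylated near start sites and Ser2-phosphorylated further into genes. H3K4me3 usually marks active start sites, H3K36me3 the bodies of transcribed genes and H3K4me1 the flanks of start sites and many enhancers. RefSeq places Tcf7 on the minus strand of chromosome 11 in the GRCm38.p6 build, so positions below run from high to low coordinates, in the direction of transcription given there. In that gene order Skp1 overlaps Tcf7, the noncoding genes Gm30217 and Gm51894 lie on its higher-coordinate side, and the protein-coding Vdac1 follows them.

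RefSeq gives 2 start sites for Tcf7 in its promoter table, 419 bases apart. Part of the DNA before each is shown, because initiation factors and open chromatin at the locus are the subject here, and the sequences below come from RefSeq in GRCm38.p6 and were not placed on the mm9 peaks. In the upstream sequence, chr11:52283015-52283179 on the minus strand, capitals mark the first ATG of the promoter window. It lies 165 bases before the start, and its reading frame holds 55 codons up to the start and 0 stop codons. Whether this frame is coding, and so whether transcription also starts further upstream, was not tested. In the downstream sequence, chr11:52282596-52282845 on the minus strand, capitals mark a match on the opposite strand to CCGGAAG, a core sequence bound by ETS-family factors.
Tcf7 upstream start, from the ATG: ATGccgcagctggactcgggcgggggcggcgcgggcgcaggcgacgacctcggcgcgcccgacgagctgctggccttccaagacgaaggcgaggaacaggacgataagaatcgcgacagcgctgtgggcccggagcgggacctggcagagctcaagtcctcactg
Tcf7 downstream start, 250 bases before it: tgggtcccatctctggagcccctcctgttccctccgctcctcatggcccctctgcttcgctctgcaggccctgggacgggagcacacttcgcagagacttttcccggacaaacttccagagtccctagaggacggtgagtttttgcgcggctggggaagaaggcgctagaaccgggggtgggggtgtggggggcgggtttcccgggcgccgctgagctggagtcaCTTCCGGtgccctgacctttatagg

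The upstream promoter window, of 300 bases, is 76.3% G and C with 45 CpG sites. Of 32851 promoter windows in the RefSeq table, 2.89% have at least this G and C content and 1.93% have at least as many CpG sites. The downstream window is less CpG-dense, with 17 CpG sites, a number reached by 31.4% of the windows. CCGGAAG was sought on both strands in the 250 bases before each start and is present before the downstream start only, 25 bases from it; 6.91% of promoters hold it in the same stretch. TATAAA has 1 match, on the opposite strand and 8 bases before the downstream start, against 12.4% of promoters with a match. CTTTGA, the core recognised by TCF family factors, has no match before either start and is present in 13.8% of promoters. The CCGGAAG and TATAAA matches before the downstream start did not overlap. A match is a description of the letters and not a binding site.

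Rank by area, with 1 for the highest area in a list, shows how the peaks of the locus stand among all peaks of the same target. Of the 190 peaks, 17 from 8 lists are in the top 1% of their list, against 0.997% of all peaks in the 16 lists by the same measure, and 26 are in the top 5%. The peaks also reach down to the lowest ranks, with 87 in the lower 50% of their list. Areas were compared only within a list. The peak of rank 1 lies at the locus for 3 lists, namely total Pol II, Ser2P and H3K4me3. Ranked by mean height, the area per base, 5 peaks of the locus are in the top 1% and none is of rank 1. The Ser2P and H3K4me3 peaks of rank 1 by area are then of ranks 3 and 4, and the total Pol II peak of rank 624. The spread of the ranks of every list is drawn in the plot of ranks by list.

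**Figure D1:**
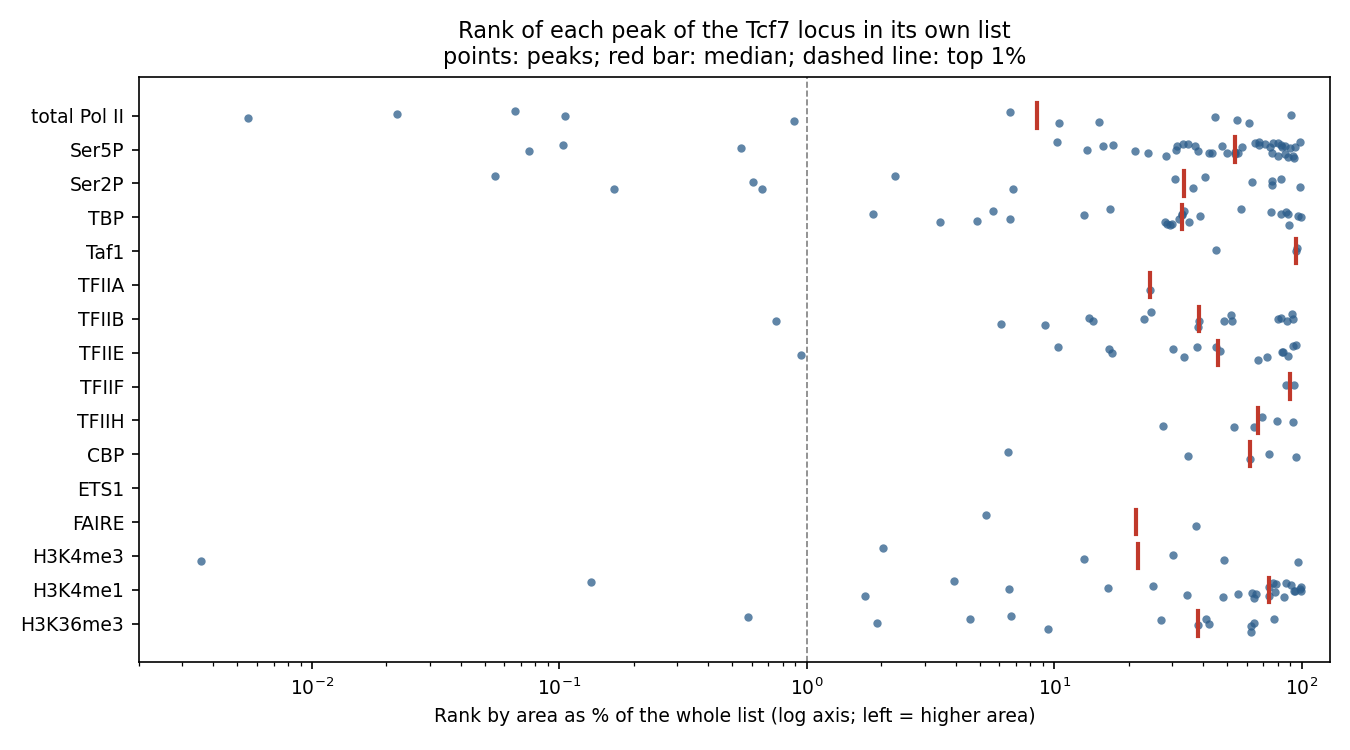
Rank by area of each of the 190 peaks of the Tcf7 locus, as a percentage of its whole list (log axis, left is higher area), with 1 row per list. Points are peaks, red bars are medians and the dashed line marks the top 1%; 17 peaks of 8 lists lie left of it, and ETS1 has no peak.

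The peaks divide the locus into 5 stretches, with bounds taken after seeing the data from the ends of the total Pol II and H3K4me3 peaks of rank 1. From high to low coordinates these are an upper flank of 13.6 kb, the H3K4me3 peak of rank 1 (here the H3K4me3 domain, 10.2 kb, chr11:52086151-52096390), a middle stretch of 8.46 kb, the total Pol II peak of rank 1 (here the long Pol II peak, 13.1 kb, chr11:52064611-52077690) and a lower flank. The general factors lie almost entirely in the H3K4me3 domain, while Pol II continues through the middle stretch and the long Pol II peak together with Ser2P and H3K36me3. The map of peaks along the locus and the plot of coverage by stretch show this order.

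**Figure D2:**
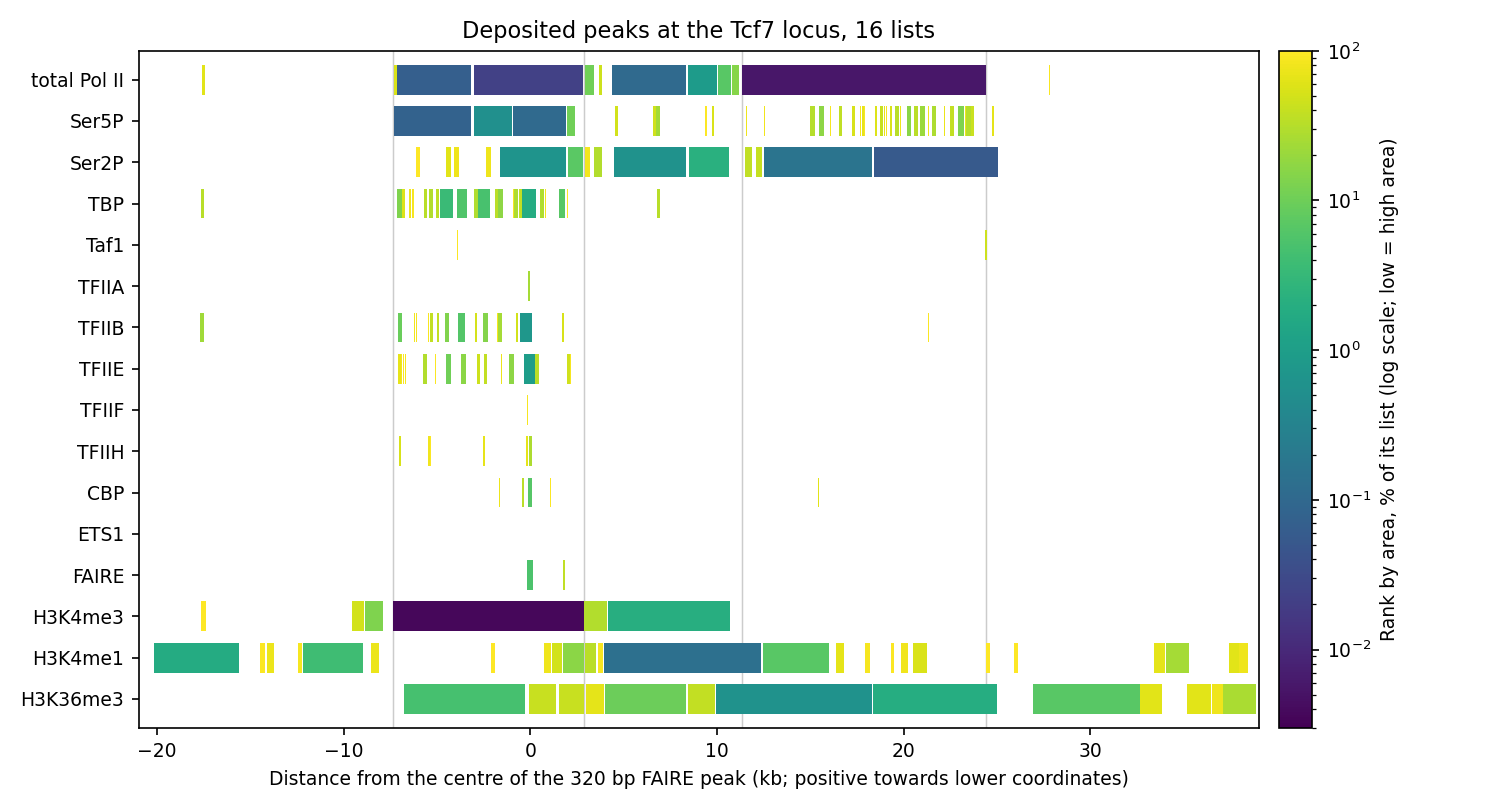
Every peak of the 16 lists at the Tcf7 locus, 1 row per list, against distance in kb from the centre of the 320 bp FAIRE peak (positive towards lower coordinates, the direction of transcription in RefSeq). Colour gives the rank by area as a percentage of the list on a log scale, and vertical lines bound the 5 stretches. TBP, TFIIB and TFIIE peaks lie mostly in the H3K4me3 domain. The darkest total Pol II peak and the darkest Ser2P peak lie downstream of it, and the total Pol II peaks of ranks 4 and 12 lie in it.

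Pol II was mapped at the locus in its total form and in both phosphorylated forms. Total Pol II has 12 peaks that cover 30.5 kb. The longest, the long Pol II peak, is 13080 bp wide, has 224 times the median area of its list and 1.60 times the area of the next peak, and is also the widest of the 18037 total Pol II peaks. By mean height it ranks 624. Total Pol II also ranks 4 at chr11:52086181-52092050, 12 at chr11:52092191-52096170 and 19 at chr11:52080671-52084640. Together the peaks cover 97.5% of the H3K4me3 domain, 85.6% of the middle stretch and all of the long Pol II peak by construction, but 0.955% of the upper flank and 0.342% of the lower flank. Pol II signal therefore starts and ends inside the window with little outside the 3 central stretches.

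Ser5P, the form of Pol II usual near initiation, has 43 peaks, the highest number among 44031 windows of 60 kb laid end to end across the genome in phase with this one. A window on chromosome 6 that is off this grid, chr6:41463235-41523235, also has 43. In the H3K4me3 domain it has 4 peaks, which cover 92.4% of the domain and hold 79.6% of the Ser5P area of the locus. The first is at chr11:52092221-52096350 (4130 bp, rank 8 of 10644, the widest of the list). The next, at chr11:52087101-52089960, is 2860 bp wide, ranks 11 and is the second widest of the list. Ser5P thus forms long blocks in the domain. Further down it is present as many short peaks: 31 peaks with midpoints in the long Pol II peak are 30 to 300 bp wide with a median of 110 bp, and have gaps of 10 to 1830 bp between them and ranks from 1443 to 9841. They cover 31.4% of that stretch.

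Ser2P, the form usual in gene bodies, has the opposite arrangement. Its 14 peaks cover 53.0% of the H3K4me3 domain, 79.1% of the middle stretch and 95.9% of the long Pol II peak. Rank 1 of 1811 is the peak at chr11:52063941-52070630, 6690 bp wide and with 56.0 times the median area of the list. This peak is high as well as wide, with rank 3 by mean height, or 0.166% of its list. The long Pol II peak that it overlaps ranks 624 of 18037 by mean height, or 3.46% of its list. The adjoining Ser2P peak at chr11:52070701-52076520, 5820 bp wide, ranks 3 by area. Within the domain Ser2P has a long peak at chr11:52087121-52090670 (rank 12) on the lower-coordinate side, and on the higher-coordinate side only peaks of 210 to 290 bp.

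Every one of the 43 Ser5P peaks overlaps a Ser2P peak, against 3.37% of Ser5P peaks in the whole list. All 43 overlap H3K36me3, against 4.29%. With H3K4me3 the order is the other way round by number of peaks, because 11 of 43 overlap it at the locus against 78.7% in the whole list. Most of the Ser5P peaks of the locus are thus the short ones in the long Pol II peak, where there is no H3K4me3 peak. By length the difference is small, as H3K4me3 covers 70.8% of the Ser5P length of the window against 78.0% of the whole list. For Ser2P, 10 of 14 peaks overlap H3K4me3 against 14.7% of its list, and 14 of 14 overlap H3K36me3 against 53.7%. These peaks adjoin one another, so they are not independent sites.

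**Figure D3:**
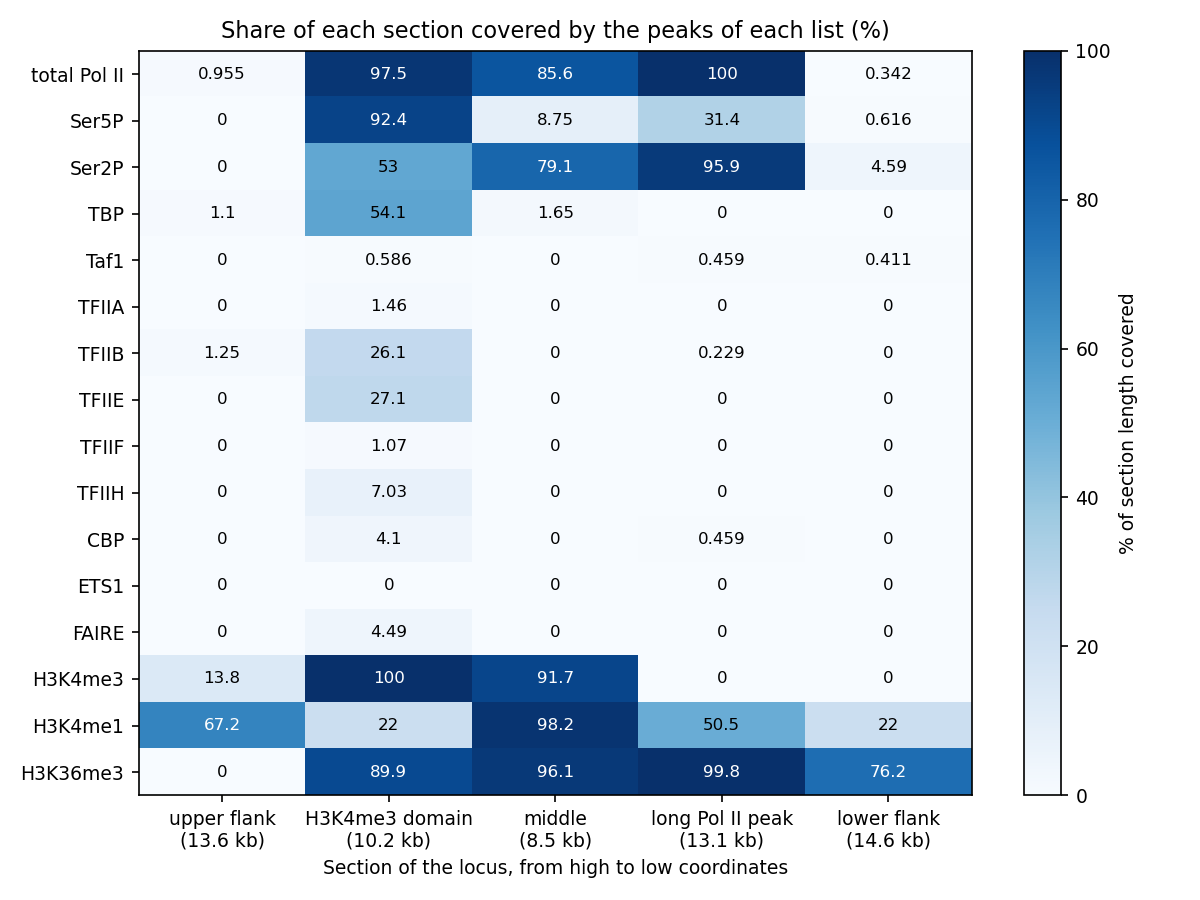
Percentage of each of the 5 stretches of the Tcf7 locus covered by the peaks of each list, from high coordinates (left) to low (right), with 1 row per list. Total Pol II covers the 3 central stretches, TBP, TFIIB and TFIIE cover mainly the H3K4me3 domain, and Ser2P coverage increases from 53.0% to 79.1% to 95.9% across the central stretches.

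TBP, the subunit of TFIID that binds the core promoter, has 25 peaks. Of these, 23 lie in the H3K4me3 domain, with 95.8% of the TBP area of the locus, and they cover 54.1% of the domain. The TBP peak of highest area, at chr11:52088701-52089470, is 770 bp wide and ranks 289 of 15651. TBP peaks of ranks 540, 761 and 882 stand at chr11:52093171-52093880, chr11:52091161-52091810 and chr11:52092411-52092960, so that the factor is spread over the domain and not held at one site. Outside the domain TBP has 1 peak in the middle stretch and 1 in the upper flank, and none in the long Pol II peak. All 25 of 25 TBP peaks overlap a total Pol II peak, against 60.9% of the TBP list. In the other direction 4 of 12 total Pol II peaks overlap TBP, against 50.0% of the total Pol II list. The long Pol II peak is among the 8 that do not.

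Platforms, the unions of overlapping total Pol II and TBP peaks, number 4 at the locus of 8649 in the genome, and 3 of them are among the 5 widest. The widest of all, at chr11:52086181-52092050, measures 5870 bp and contains 13 TBP peaks and peaks of 14 lists, without Taf1 and ETS1. A platform at chr11:52092191-52096170 measures 3980 bp, is the third widest, and contains 10 TBP peaks and peaks of 10 lists. Both lie in the H3K4me3 domain and differ in composition: TFIIA, TFIIF, CBP, FAIRE and H3K4me1 have peaks on the first and not on the second, and Taf1 the reverse. The fourth widest, at chr11:52080671-52084640 in the middle stretch, measures 3970 bp and is mainly a Pol II peak, with 1 TBP peak of 140 bp and no TFIIB or TFIIE. The last platform, in the upper flank at chr11:52106481-52106660, measures 180 bp and has 5751 as its rank by width.

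TFIIB, which joins TBP and Pol II, and TFIIE, which recruits TFIIH, follow TBP. Of 17 TFIIB peaks, 15 lie in the H3K4me3 domain with 94.1% of the area, and of 16 TFIIE peaks all 16 do. Their peaks of highest area are at chr11:52088921-52089570 for TFIIB (650 bp, rank 83 of 10999, and the fourth widest of the list) and at chr11:52088781-52089340 for TFIIE (560 bp, rank 111 of 11678). The remaining peaks of both are 40 to 370 bp wide within the domain. TFIIH, which carries helicase and kinase activity, has 6 peaks, all in the domain and none above rank 2373 of 8618. The TFIIB list came from 1 replicate.

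TFIIF, a Pol II partner, has 2 short peaks at chr11:52089151-52089210 and chr11:52089231-52089280, of ranks 1089 and 1174 of 1262. TFIIA, which stabilises TBP on DNA, has 1 peak at chr11:52089021-52089170, rank 1604 of 6588. Both factors are present at a single place in the window. Taf1, the largest TFIID subunit, has 3 peaks, from a list of 1 replicate: one of 120 bp at chr11:52064551-52064670, rank 6100 of 13518, and 2 of 30 bp in the domain. The highest-area Taf1 peak thus lies at the far end of the long Pol II peak and not with TBP.

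Most peaks of TBP, TFIIB and TFIIE at the locus lie in H3K36me3, a mark usual in gene bodies. Of the TBP peaks, 23 of 25 overlap H3K36me3, against 1.67% of the TBP list, and 12 of 25 overlap Ser2P, against 1.78%. For TFIIB, 15 of 17 overlap H3K36me3 against 1.70%, and for TFIIE 14 of 16 against 2.21%. The factors with fewer peaks differ among themselves: TFIIH has 4 of 6 in H3K36me3 against 3.75%, TFIIF 0 of 2 against 2.69%, TFIIA 1 of 1 against 5.81% and Taf1 3 of 3 against 4.19%. FAIRE peaks overlap 2 of the 25 TBP peaks, against 24.7% of the TBP list. These shares describe neighbouring peaks that share the same few H3K36me3 and Ser2P peaks.

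Open chromatin by FAIRE is limited to 2 peaks, both in the H3K4me3 domain. The higher, at chr11:52088861-52089180, is 320 bp wide and ranks 591 of 11176. Peaks of 12 of the 15 other lists overlap it, and Taf1, ETS1 and H3K4me1 do not; 7 of the 11176 FAIRE peaks meet at least as many lists. For TBP, TFIIA, TFIIB, TFIIE, TFIIF, TFIIH and CBP, the peak of highest area at the locus overlaps it in all 7 lists, and the same holds by mean height. These 7 lists were grouped with the peaks known, leaving out Taf1 and ETS1, so the count of 7 follows in part from that choice. TFIIA has 1 peak in the window, so its highest peak could lie nowhere else. TFIIF has 2 peaks with a gap of 20 bp, of low ranks (1089 and 1174 of 1262), so its highest peak could lie only at or beside this place. Across the FAIRE list 0.107% of peaks, 12 in number, are overlapped by all 7 of these lists. Among the general factors with peaks elsewhere in the window, TBP, TFIIB, TFIIE and TFIIH have their highest-area peak at this place. Taf1 does not, as its highest-area peak lies at the far end of the long Pol II peak.

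**Figure D4:**
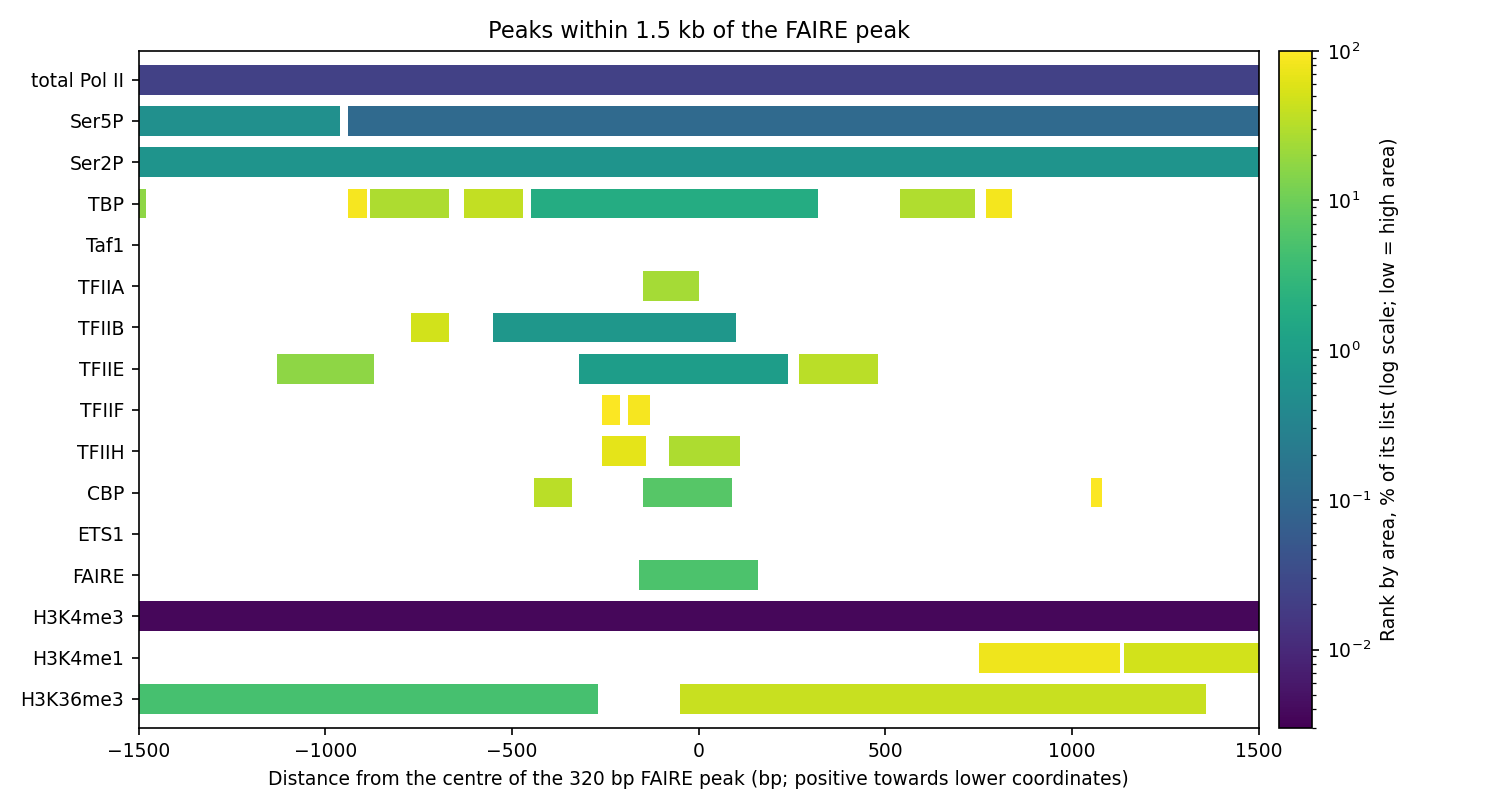
Peaks within 1.5 kb of the 320 bp FAIRE peak of the Tcf7 locus, 1 row per list, against distance in bp from its centre (positive towards lower coordinates). Colour gives the rank by area as a percentage of the list on a log scale; peaks of TBP, TFIIA, TFIIB, TFIIE, TFIIF, TFIIH and CBP overlap the FAIRE peak, and Taf1, ETS1 and H3K4me1 have none there.

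The midpoints of these peaks lie close together. Relative to the midpoint of the FAIRE peak, TFIIH is 15 bp towards lower coordinates, and CBP is 30 bp, TFIIE 40 bp, TBP 65 bp, TFIIA 75 bp, TFIIF 160 bp and TFIIB 225 bp towards higher coordinates. Peak ends fall on steps of 10 bp, and most of the peaks are wider than the differences, so the order among them is not resolved. H3K36me3 is interrupted at the upper edge of this FAIRE peak, between a peak that ends at 52089070 and one that starts at 52089291, and the H3K4me3 peak runs through it. The other FAIRE peak, at chr11:52087151-52087290, is 140 bp wide and ranks 4195. It meets 8 other lists, among them TBP and TFIIB but not TFIIA, TFIIE, TFIIF, TFIIH or CBP.

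CBP, a histone acetyltransferase and coactivator, has 5 peaks, from a list of 1 replicate. The peak at the FAIRE site, chr11:52088931-52089170, ranks 416 of 6372 and holds 54.0% of the CBP area of the locus. In the domain the others are at chr11:52089361-52089460 (rank 2211), chr11:52090641-52090690 (rank 4695) and chr11:52087941-52087970 (rank 6079). The last, at chr11:52073551-52073610 inside the long Pol II peak, ranks 3934 and overlaps no TBP peak. ETS1, a T-cell factor of the ETS family, has 0 of its 2359 peaks in the window, so no ETS1 peak was called near either FAIRE peak. Only 1873 of 44031 windows of 60 kb across the genome hold an ETS1 peak, so a window without one is the usual case.

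H3K4me3 has 6 peaks at the locus. The peak of rank 1 of 28013, which defines the domain, is 10240 bp wide and has 65.5 times the median area of the list and 1.31 times the area of rank 2. It is high as well as wide, with rank 4 by mean height and 8 by width. The next, at chr11:52078311-52084860 in the middle stretch, is 6550 bp wide and ranks 571 by area but 17072 by mean height, a long and low peak. No H3K4me3 peak lies in the long Pol II peak or the lower flank.

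H3K36me3 covers 89.9% of the H3K4me3 domain, 96.1% of the middle stretch, 99.8% of the long Pol II peak and 76.2% of the lower flank, and none of the upper flank. Its peak of highest area, at chr11:52070711-52079080, is 8370 bp wide, ranks 284 of 49181 by area and 17 by mean height. The neighbouring peak at chr11:52064001-52070680 ranks 949. That neighbouring peak ends at 52064001, shortly past the lower end of the long Pol II peak at 52064611. Most of the H3K36me3 cover of the lower flank comes, after a gap, from separate peaks between 52062110 and 52050131. Which gene these belong to was not tested. In the other direction H3K36me3 stops at 52095790, inside the domain.

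H3K4me1 has the reverse of the H3K4me3 pattern in the domain, where it covers 22.0%. It covers 98.2% of the middle stretch, 67.2% of the upper flank and 50.5% of the long Pol II peak. Its peak of highest area, chr11:52076671-52085080, is 8410 bp wide and ranks 100 of 74607. Around and within the domain it leaves gaps of 6030 bp (chr11:52091111-52097140), which contains 12 TBP, 10 TFIIB and 10 TFIIE peaks, and 2660 bp (chr11:52088271-52090930), which contains 7, 4 and 4 of them. Of the 25 TBP peaks of the locus, 7 overlap H3K4me1, against 46.1% of the TBP list. Most TBP peaks thus stand outside H3K4me1 peaks both at the locus and in the whole list.

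The promoter and gene-body marks share most of their length in the H3K4me3 domain and the middle stretch. H3K36me3 covers 83.8% of the H3K4me3 length of the window, against 2.29% of the length of the whole H3K4me3 list, and 3 of 6 H3K4me3 peaks overlap it, against 1.97% of the list. Because the peak of rank 1 was one of the values the locus is known for, it was set beside the other 19 of the 20 H3K4me3 peaks of highest area. H3K36me3 covers 89.9% of it, and 11.0% to 88.1% of the others with a median of 35.2%. H3K4me1 covers 22.0%, the lowest of the 20, where the others have 41.8% to 97.7% with a median of 63.8%.

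The Pol II forms and TBP cover more of this H3K4me3 peak than of any of the other 19. Ser5P covers 92.4%, against 1.64% to 71.5% with a median of 27.0%. Ser2P covers 53.0%, against 0% to 29.6% with a median of 2.21%. Total Pol II covers 97.5% (6.57% to 85.5%, median 45.6%), and TBP 54.1% (0.398% to 35.6%, median 14.5%). The peak is thus at an end of the range for all 6 lists compared, with no test, since the 20 peaks were ranked by area and the locus was chosen for its values.

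**Figure D5:**
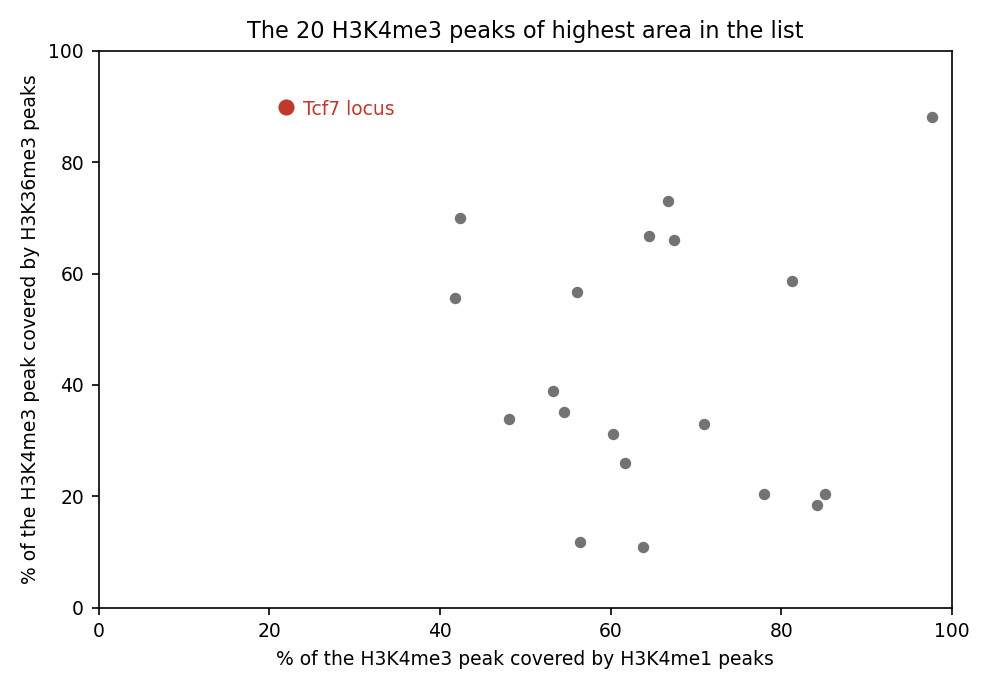
Coverage by H3K36me3 peaks (vertical axis, %) against coverage by H3K4me1 peaks (horizontal axis, %) for the 20 H3K4me3 peaks of highest area, 1 point per peak. The peak of the Tcf7 locus (red) has the highest H3K36me3 coverage, 89.9%, and the lowest H3K4me1 coverage, 22.0%, of the 20.

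As a summary of order, the area-weighted mean position of each list was taken. From high to low coordinates it runs TFIIB (52092152), TFIIH (52091856), TBP (52091405), TFIIE (52091084), H3K4me3 (52090558), TFIIF (52089213), TFIIA (52089096), FAIRE (52088549), CBP (52087465), Ser5P (52087129), H3K4me1 (52085726), total Pol II (52079891), Ser2P (52075698), Taf1 (52074498) and H3K36me3 (52073936). Thus 12 of the lists have a mean position upstream of Ser2P. Neighbours among TFIIB, TFIIH, TBP, TFIIE and H3K4me3 stand within 2 kb of each other, while the step from Ser5P to total Pol II and Ser2P is larger. Taf1 has its place mainly from a single peak of 120 bp. With every peak weighted equally, Ser5P moves to 52073636 and Ser2P to 52084044, so the order of these forms turns with the weighting, which then counts the many short Ser5P peaks as much as the long ones. Taf1 (52084350) and H3K4me1 (52079240) also move by more than 5 kb.

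The upper flank has a small separate site at chr11:52106481-52106700. Total Pol II (130 bp, rank 11110), TBP (150 bp, rank 5128), TFIIB (170 bp, rank 2531) and H3K4me3 (240 bp, rank 27047) meet there inside the H3K4me1 peak of rank 1280. Neither FAIRE, CBP, Ser5P nor Ser2P has a peak at it. Apart from this site the upper flank holds H3K4me1 and the ends of the H3K4me3 signal, with no other Pol II or general factor peak.

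Set against the other 60 kb windows of the genome, the locus is in the top 1% by summed area for 11 of the 16 lists, and 0.0886% of windows, 39 of 44031, are so in at least as many. By summed area it ranks 2 for total Pol II, Ser2P and H3K4me3 and 3 for Ser5P. TFIIB, TFIIE and TBP rank 29, 32 and 33, H3K36me3 71, TFIIH 99, H3K4me1 145 and CBP 200. Taf1, TFIIA, TFIIF, FAIRE and ETS1 are not in the top 1%. Most of the 44031 windows hold no peak of a given list, with 1010 windows holding a Ser2P peak and 14483 an H3K4me1 peak, the extremes. Among windows with a peak of the same list, CBP (5105 windows), TFIIH (7008) and, narrowly, H3K4me1 (14483) would not be in the top 1%. The count of 11 lists and the share of 0.0886% thus depend on including empty windows. These ranks are high by choice of the locus for the Pol II forms and TBP. The H3K4me3 peak of rank 1 was also a value the locus is known for, so the H3K4me3 rank is not free of that choice. For the other lists the ranks give their place as a description.

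Windows of the same length around the most like regions have other make-ups. A window on chromosome 1 (chr1:135943590-136003590) holds 170 peaks, 16 of them in the top 1%, and 10 platforms of up to 4460 bp. A window on chromosome 6 (chr6:41463235-41523235) holds 207 peaks, 21 in the top 1%, and 13 platforms of up to 3790 bp. Both have more platforms than the Tcf7 locus, and the widest platform of each is shorter than the widest here, of 5870 bp. H3K36me3 covers 26.5% and 26.7% of their H3K4me3 length, against 83.8% here. The difference is smaller for the H3K4me3 peak of highest area in each window. There H3K36me3 covers 70.0% on chromosome 1 and 55.6% on chromosome 6, against 89.9% at the Tcf7 locus. A window on chromosome 17 (chr17:51847370-51907370) holds 71 peaks, among them 23 Ser2P and 17 total Pol II peaks, but no TBP peak, platform or H3K4me3 peak. That window was centred on a Ser2P peak, and the region runs on past its upper edge, with the total Pol II peaks of ranks 2, 3 and 5, a Ser2P peak of 5990 bp and the H3K4me3 peak of rank 3 (chr17:51960331-51971810, with H3K36me3 over 66.8% and TBP over 12.2% of it), so what it lacks depends on where it was placed. The longest Ser2P peak is 1000 bp on chromosome 1, 810 bp on chromosome 6 and 4460 bp on chromosome 17, against 6690 bp at the Tcf7 locus. The longest H3K36me3 peaks are 4180, 2790 and 13580 bp, against 8370 bp. Each of the 4 is 1 locus, so no error can be given for these differences.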

How the data were processed

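Chromatin immunoprecipitation and FAIRE peaks of double-positive thymocytes were deposited as 1 list per target, with chromosome, start, end and area. The area is in signal units, the area under the authors' track over a peak, per the deposited file and track names. By those names replicates were merged for 13 lists, and CBP, Taf1 and TFIIB came from 1 replicate. Tracks other than FAIRE were scaled and background-subtracted by the same names. The submitters' processing notes name mm9. Not given in the sources used here are the aligner, peak caller, threshold and depth.

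Peaks inside the window were taken from each list and ranked by area among all peaks of their list, ties sharing the best rank. The members, stretches and comparison windows were chosen with earlier results of these data known. Regions named are all platforms of the window, the peak of highest area of each list, peaks of rank 1 to 10, every CBP, ETS1, FAIRE and TFIIF peak, and others picked after their values were seen. Overlap means 1 bp or more. Peaks were put in a stretch by midpoint, and 60 kb windows were laid end to end in phase with the locus. Mean height is area divided by width. No test was possible with 1 list per target, and no p-value is given. Alternatives varied the ranking, weights, merging, window edges, thresholds and platform rule. Python 3.11.15, numpy 2.4.6 and matplotlib 3.10.9 were used, and the code gave 9 of 9 right answers on simulated data.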

Additional observations from a re-analysis of the deposited data

How the results depend on the processing

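The number of peaks at the locus fell from 190 to 103 when only the upper 50% by area were kept, to 124 with peaks up to 100 bp apart merged and to 71 with peaks up to 500 bp apart merged. The 17 peaks in the top 1% became 5 by mean height, 11 with merging at 500 bp and 26 for the top 5%. No list had its rank 1 peak here by mean height (0 against 3), and 12 platforms replaced 4 with total Pol II alone. Of 59 mean positions recomputed, 53 moved by 5 kb or less. The others were Ser5P (52073636), Ser2P (52084044), Taf1 (52084350) and H3K4me1 (52079240) weighted equally, Taf1 (52064610) in the upper 50% and H3K4me1 (52080332) with edges moved in by 10 kb. The 7 lists with their highest-ranked peak at the FAIRE site became 6 with the upper 50% and 5 with merging at 500 bp, alternatives chosen after seeing the data. The upper 50% leaves out 87 of the 190 peaks, among them both TFIIF peaks and 2 of the 3 Taf1 peaks. The changes under that filter follow from this. The cause of the other shifts was not tested. Depth was unknown, so a missing peak does not show absence. No paired analysis was possible because there was 1 list per target.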

Other observations

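Within 20 kb beyond the edges of the window there were 21 peaks below it, 0 of them in the top 1% of their list, and 47 above it, with 2. The nearest ETS1 peak above the locus, at chr11:52127731-52128000, ranked 147 of 2359 and lay 17.7 kb beyond the edge. It fell in a cluster of overlapping peaks at chr11:52127441-52128170 with TFIIB, TFIIE, TFIIF, TFIIH, CBP and FAIRE, 7 lists without the histone marks and 9 with H3K4me3 and H3K4me1. The CBP peak of that cluster, chr11:52127441-52128000, ranked 12 of 6372, above the rank of 416 of the highest CBP peak inside the window, and its FAIRE peak of highest area, chr11:52127541-52127990, ranked 251 against 591. No total Pol II or TBP peak lay in it. Another 3 clusters above the window combined general factors with Pol II and TBP, all under H3K4me3 and H3K4me1 peaks. Counting these marks, peaks of 10 lists met at chr11:52123001-52123390, of 8 at chr11:52124141-52124670 and of 6 at chr11:52113211-52113520. Which gene each of these sites belongs to was not tested.

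Below the window a TBP peak at chr11:52045391-52045690 ranked 349 of 15651, close to the rank of 289 of the highest TBP peak inside.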
